A study of Mus musculus with 9 samples.

Results

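The 8 genes described here encode the subunits of protein kinase A (PKA) and the Epac exchange factors, the main proteins that cAMP acts on inside a cell. They were chosen by their symbols: Prkaca and Prkacb (catalytic subunits), Prkar1a, Prkar1b, Prkar2a and Prkar2b (regulatory subunits), and Rapgef3 and Rapgef4 (Epac1 and Epac2). All 8 were among the 35673 gene symbols of the count table, and all 8 passed the filter on low counts together with 21341 genes in all. Transcripts were counted in basophils grown from wild-type C57BL/6J mouse bone marrow for 7 days in 0.3 ng/mL IL-3 and then enriched for CD49b on magnetic particles. Each of 9 libraries came from 10000 such cells held for 4 hours. The 3 resting libraries had PBS and the solvent DMSO, the 3 stimulated libraries DMSO with 10 ng/mL of IL-3 and 10 ng/mL of IL-33. The 3 difamilast libraries had these cytokines and, at 3 µM, difamilast, which blocks the cAMP-degrading enzyme PDE4. Difamilast was thus seen only on top of stimulation, and every group had been cultured in IL-3 before the treatment. The labels do not say whether replicates came from separate cultures, so p-values measure the spread between these libraries, which may be technical.

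PKA at rest is a tetramer of a pair of regulatory and a pair of catalytic subunits. When cAMP binds the regulatory subunits, the catalytic subunits are set free to phosphorylate their substrates, among them the transcription factor CREB. Regulatory subunits come as type I and type II, which differ in affinity for cAMP and in where anchoring proteins hold them. The Epac proteins are a separate branch: they bind cAMP directly and load the small GTPases of the Rap family with GTP. In granulocytes and mast cells cAMP is known mainly as a brake on mediator release.

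Total counts ran from 6261446 to 14795353 in resting, from 11798711 to 38098584 in stimulated and from 24812305 to 30299575 in difamilast libraries. Levels are given as CPM, read counts scaled by the TMM method to a common library size. The TMM factors were 1.32, 1.23 and 1.26 in resting, 0.892, 0.885 and 0.871 in stimulated and 0.916, 0.911 and 0.851 in difamilast libraries. They differ by group, so folds against resting libraries depend on this scaling, and no fit was made without scaling factors. Basophil markers were present throughout: the 12 markers summed to between 9565 and 10577 CPM in resting, 15057 and 15912 in stimulated and 16637 and 17516 in difamilast libraries. With stimulation 7 of the 12 rose and 1 fell. Monocyte and macrophage markers were present as well. Their 10 genes summed to between 6194 and 7626 CPM in resting, 4703 and 4996 in stimulated and 5321 and 5374 in difamilast libraries, and 7 of the 10 fell with stimulation. For difamilast against stimulation, 1 of the 10 was called higher and none lower. Of these genes, Cd14 averaged 267 CPM in stimulated and 887 CPM in difamilast libraries. The 5 megakaryocyte and platelet markers summed to between 465 and 656, 289 and 419, and 386 and 452 CPM in the same order of groups. The 7 mast cell markers summed to between 475 and 786, 742 and 812, and 699 and 721 CPM, and with stimulation 1 rose and 2 fell. The highest sum in any library was 161 CPM for neutrophil, 61.2 for eosinophil, 59.1 for erythroid, 41.4 for T and B cell and 33.8 for natural killer cell markers. In bulk RNA, fewer cells of a type and less RNA per cell cannot be told apart, and the part of these other cells in the results below was not tested.

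The promoter sequences of 3 members are shown because these members behaved differently: Prkacb had the largest change with stimulation, its paralogue Prkaca a small one, and Prkar1a had the largest difference of the well-counted members with difamilast. Each is the stretch of 250 bases before an annotated RefSeq start on GRCm38.p6, written 5′ to 3′ in the direction of transcription, with matches to the cAMP response element (CRE, TGACGTCA) or its half-site TGACG, on either strand, in capitals. A full CRE also holds the half-site on both strands. Where a gene has several annotated starts, a window holding a match was chosen to be shown. The windows are Prkacb at chr3:146812947-146813196 on the minus strand, Prkaca at chr8:83972728-83972977 on the plus strand and Prkar1a at chr11:109650699-109650948 on the plus strand.
Prkacb: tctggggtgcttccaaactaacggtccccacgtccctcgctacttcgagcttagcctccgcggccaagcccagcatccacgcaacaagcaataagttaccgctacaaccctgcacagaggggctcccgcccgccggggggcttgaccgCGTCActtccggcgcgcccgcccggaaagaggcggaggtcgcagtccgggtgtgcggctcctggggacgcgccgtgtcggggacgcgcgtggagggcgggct
Prkaca: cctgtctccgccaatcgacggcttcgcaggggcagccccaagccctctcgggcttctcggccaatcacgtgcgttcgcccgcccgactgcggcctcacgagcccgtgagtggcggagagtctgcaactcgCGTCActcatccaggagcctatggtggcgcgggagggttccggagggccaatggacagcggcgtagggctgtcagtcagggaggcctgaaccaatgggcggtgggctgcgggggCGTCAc
Prkar1a: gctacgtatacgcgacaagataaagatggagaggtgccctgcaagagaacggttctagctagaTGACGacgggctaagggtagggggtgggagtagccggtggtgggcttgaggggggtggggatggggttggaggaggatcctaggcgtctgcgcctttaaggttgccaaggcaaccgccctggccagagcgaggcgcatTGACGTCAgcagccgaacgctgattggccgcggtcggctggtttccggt

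The Prkar1a window holds a full CRE whose first base lies at -49 relative to the annotated start. The same CRE lies at 38 in the window of another annotated Prkar1a start, so it is before one start and inside the transcript of the other. Windows of 300 bases (250 before and 50 after a start) were found for all 8 members, 21 in number. Of these, 2 hold a full CRE, both at Prkar1a, beside 1.79% of 32851 windows of all genes. The half-site stands in 8 of the 21 windows, beside 20.8% of all windows, and in 6 of the 8 members, beside 23% of all genes. The 8 members have 21 windows and the 27025 genes have 32851, so the shares of genes are not like for like. The 2 windows with the full CRE overlap and hold the same matches. The Prkacb window shown has 1 half-site, at -102, and its other 2 windows have none. No window of a member held the STAT motif TTCNNNGAA, on either strand, which 8.3% of all windows hold. These are matches of letters, and counts per gene do not tell which start a transcript came from.

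The comparison of stimulated with resting libraries addresses how the cytokines changed the cAMP effectors. Of the 8 members, 4 fell and none rose (edgeR, p-values adjusted over all tested genes by Benjamini-Hochberg): both catalytic subunits, Prkar2b and Rapgef3. Over all 21341 tested genes, 16.4% were called lower and 15.3% higher. The median log2 fold change of the 8 was -0.52, beside 0.06 over all tested genes. Prkar1a, Prkar1b, Prkar2a and Rapgef4 did not pass.

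**Figure D1:**
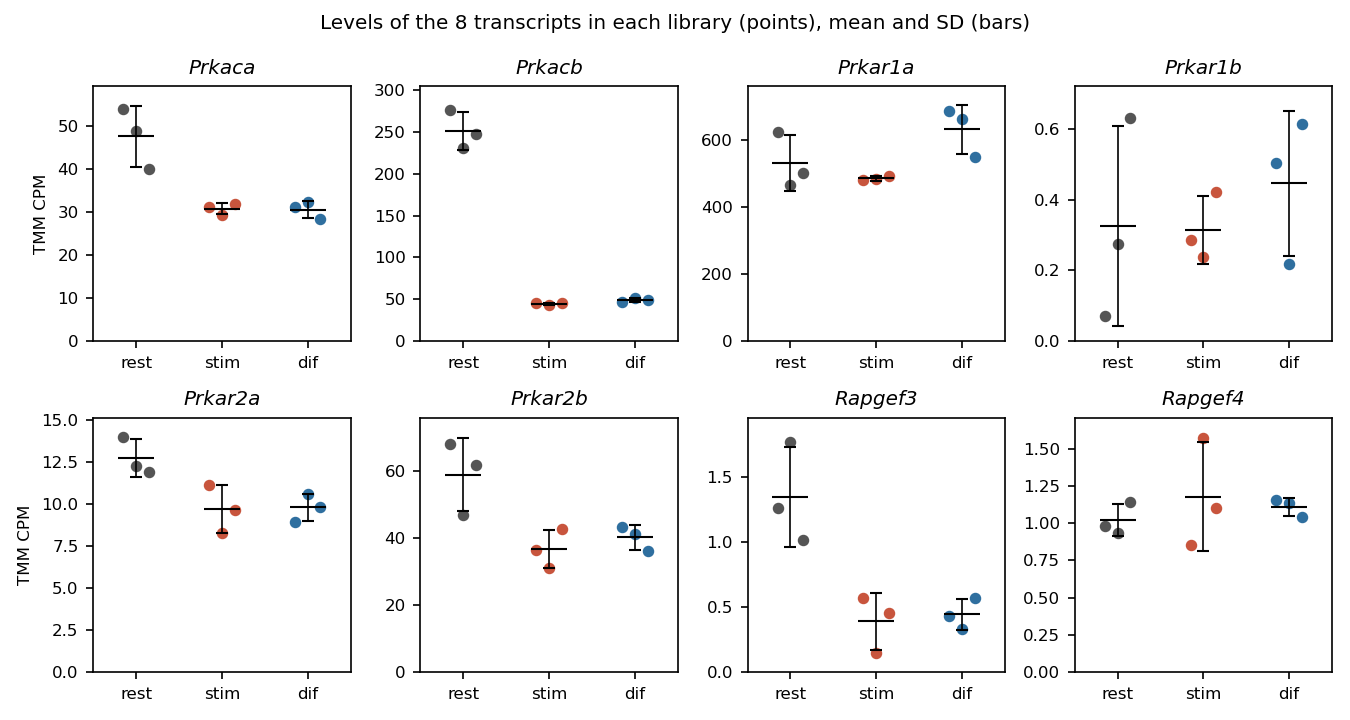
Level of each member (TMM CPM, linear axis from 0, a scale of its own per panel) in the 3 resting (rest), 3 stimulated (stim) and 3 difamilast (dif) libraries; points are libraries in replicate order, bars the mean and SD. Prkacb lies between 231 and 276 CPM at rest and between 42.7 and 51.0 in all 6 libraries with cytokines.

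Prkacb, the gene of the catalytic subunit beta (chromosome 3, 146729574 to 146812990), changed most of the 8. It stood at 276, 231 and 248 CPM in resting replicates 1 to 3, at 45.5, 42.7 and 44.9 in stimulated replicates, and at 46.0, 51.0 and 48.7 in difamilast replicates. Every resting library was far above every library with cytokines, and the cytokine libraries lay close together. The fall with stimulation was 5.68-fold (95% interval 4.84 to 6.65; log2 fold change -2.50 ± 0.11 SE, adjusted p = 1.45e-10 by edgeR). Only 93 of the genes called lower had a larger fall, 0.44% of all tested genes having a lower log2 fold change. Among genes called lower it had the second smallest p.

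Prkaca, the gene of the catalytic subunit alpha (chromosome 8, 83972993 to 83996443), fell less. Its levels were 53.8, 48.8 and 39.9 CPM in resting, 31.1, 29.3 and 31.9 in stimulated and 31.0, 32.3 and 28.3 in difamilast libraries. The lowest resting library was still above the highest with cytokines. The fall was 1.55-fold (95% interval 1.28 to 1.87; adjusted p = 0.00144 by edgeR). The log2 ratio of Prkacb to Prkaca was 2.36, 2.24 and 2.64 in resting and 0.55, 0.55 and 0.49 in stimulated libraries, so that the ratio was 3.69-fold lower with stimulation. A two-sided exact permutation test of that ratio gave p = 0.1, the smallest that 3 against 3 libraries allow. No stretch of 50 bases is shared by the annotated transcripts of any pair of the 8 members, and the pseudogene Prkaca-ps1, which shares 0.328% of such stretches of Prkaca, had 5 counts over all libraries.

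Per length, with each level divided by the kilobases of the gene's longest annotated transcript, Prkacb made up 72.9%, 71.2% and 76.5% of catalytic subunit transcripts in resting libraries. In stimulated libraries it made up 43.4%, 43.3% and 42.4%, and in difamilast libraries 43.7%, 45.3% and 47.4%. Prkacb was therefore the more abundant catalytic transcript at rest (57.9 ± 5.27 against 20.9 ± 3.10 CPM per kilobase, SD, n = 3) and the less abundant after stimulation (10.2 ± 0.336 against 13.5 ± 0.597). The same holds with the median transcript length, where the share was 72.3% ± 2.77 at rest and 41.5% ± 0.519 after stimulation. Without division by length Prkacb had more counts than Prkaca in every library, 84.1% ± 1.83 and 59.1% ± 0.518 of the pair, so which of them leads after stimulation rests on the length used.

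The regulatory subunits were dominated by Prkar1a, the gene of type I alpha (chromosome 11, 109649405 to 109669656). It stood at 625, 466 and 499.6 CPM in resting libraries and at 479, 482 and 493 in stimulated ones. On this TMM scale, the stimulated values lay inside the resting range. Its log2 fold change was -0.13 ± 0.12 (SE; adjusted p = 0.46 by edgeR, 95% interval -0.39 to 0.13). Per length, Prkar1a supplied 88.2% ± 0.947 of regulatory transcripts at rest and 91.4% ± 1.07 after stimulation (SD, n = 3).

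Prkar2b, the gene of type II beta (chromosome 12, 31958476 to 32061296), was the second regulatory transcript. Its levels were 68.0, 47.0 and 61.9 CPM in resting, 36.6, 31.1 and 42.7 in stimulated and 43.4, 41.4 and 36.2 in difamilast libraries. Resting and stimulated libraries did not overlap, with resting replicate 2 the closest to stimulated replicate 3. The fall was 1.60-fold (95% interval 1.27 to 2.01; adjusted p = 0.00336 by edgeR). Prkar2a, the gene of type II alpha (chromosome 9, 108689314 to 108750436), stood at 14.0, 12.3 and 11.9 CPM in resting and 11.1, 8.28 and 9.63 in stimulated libraries. All stimulated values were below all resting values, yet the gene did not pass (log2 fold change -0.41 ± 0.17 SE, adjusted p = 0.0711 by edgeR). It passed with DESeq2 (adjusted p = 0.037) and without stimulated replicate 1 (adjusted p = 0.0428); over the 16 alternatives its adjusted p ran from 0.037 to 0.279.

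Type II transcripts together made up 11.4%, 11.0% and 12.7% of regulatory transcripts per length at rest, 8.75%, 7.35% and 9.40% after stimulation and 6.98%, 7.10% and 7.50% with difamilast. The resting shares were above all others, while the stimulated and difamilast shares overlapped. With the median transcript length the mean shares were 5.73%, 4.33% and 3.56%. Prkar1b, the gene of type I beta (chromosome 5, 139017306 to 139150001), is known chiefly from neurons. It was barely counted here, with 1, 5 and 5 reads in resting, 3, 8 and 13 in stimulated and 14, 6 and 13 in difamilast libraries. Part of its exons, 341 bases, is shared with the annotated transcript Gm15672 on the same strand. Its 95% interval for stimulation ran from -1.41 to 1.72 on the log2 scale, so a change was not detectable at this depth.

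**Figure D2:**
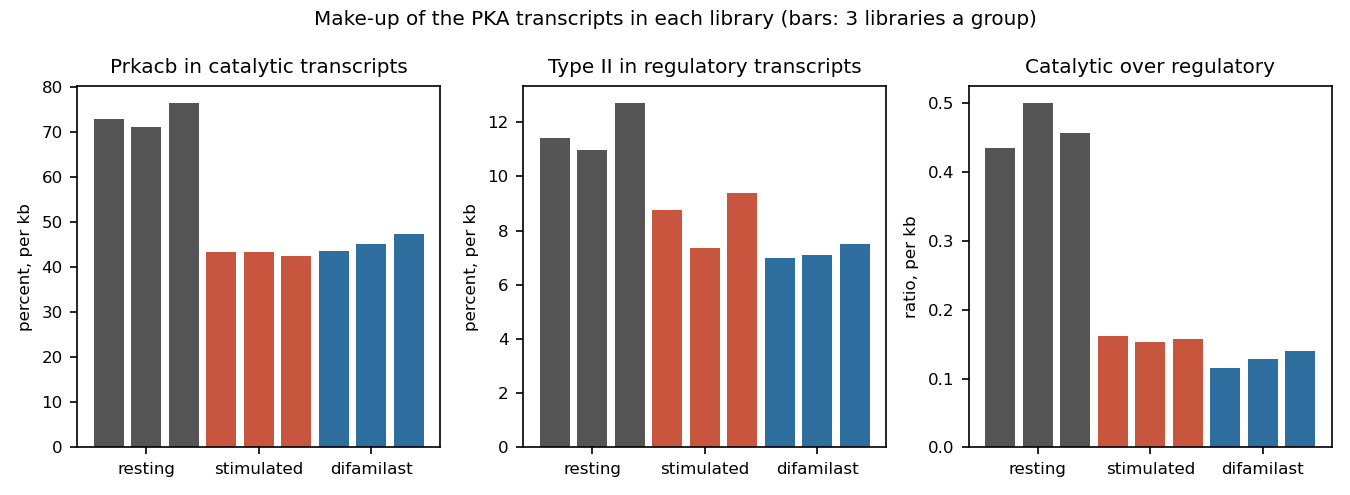
Share of Prkacb in catalytic subunit transcripts, share of type II in regulatory subunit transcripts (both in percent), and ratio of catalytic to regulatory transcripts, all from CPM per kilobase of the longest transcript; each bar is 1 library. The ratio lies between 0.434 and 0.500 at rest and at or below 0.161 in all 6 libraries with cytokines.

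Catalytic transcripts were fewer than regulatory ones per length in every library, and the gap was wider with cytokines. The ratio of catalytic to regulatory transcripts was 0.434, 0.500 and 0.457 in resting, 0.161, 0.153 and 0.157 in stimulated, and 0.115, 0.128 and 0.140 in difamilast libraries. Resting libraries stood apart from the rest, and each difamilast library was below each stimulated one. The related kinase Prkx, whose levels are given below, is not a member and is not counted here. These ratios are sums over members and were not tested. With the median transcript length they were 0.160 ± 0.011, 0.054 ± 0.002 and 0.044 ± 0.004 (SD, n = 3), in the same order.

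The Epac genes were near the detection limit. Rapgef3 (chromosome 15, 97744770 to 97767972) had 18, 32 and 8 reads in resting, 6, 5 and 14 in stimulated and 12, 9 and 12 in difamilast libraries. In CPM these were 1.26, 1.76 and 1.01 at rest against 0.57, 0.15 and 0.45 with stimulation and 0.43, 0.33 and 0.57 with difamilast, with resting libraries above all others. The fall with stimulation was 3.85-fold with a wide 95% interval of 1.80 to 8.24 (adjusted p = 0.00919 by edgeR). The call was lost without resting replicate 2 (adjusted p = 0.0513) or stimulated replicate 2 (adjusted p = 0.0529). Over its 15 alternatives the adjusted p ran from 0.0022 to 0.0529.

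Rapgef4 (chromosome 2, 71981240 to 72257474) had 14, 17 and 9 reads in resting, 9, 53 and 34 in stimulated and 32, 31 and 22 in difamilast libraries, or between 0.86 and 1.57 CPM in all. The groups overlapped, and its log2 fold change was 0.29 ± 0.34 (SE; adjusted p = 0.571 by edgeR). Antisense transcripts overlap exons of both Epac genes, and the use of strand in counting is not given in the sources used here; the 2 at Rapgef3 that are in the table, Rapgef3os1 and Rapgef3os2, had 3 and 5 counts over all libraries. Per length the order of the members at rest was Prkar1a (151 ± 23.8 CPM per kilobase), Prkacb (57.9 ± 5.27), Prkaca (20.9 ± 3.10), Prkar2b (17.5 ± 3.20), Prkar2a (2.56 ± 0.224), Rapgef3 (0.32 ± 0.091), Rapgef4 (0.24 ± 0.026) and Prkar1b (0.12 ± 0.11; all SD, n = 3). Prkaca and Prkar2b differed from each other by no more than their summed SDs, as did Rapgef3 from Rapgef4 and Rapgef4 from Prkar1b.

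The comparison of difamilast with stimulated libraries asks what the PDE4 inhibitor did to these genes in activated cells. None of the 8 members was called by edgeR; 2.21% of all tested genes were called higher and 1.24% lower. DESeq2 called none either, but it gave Prkar1b, Rapgef3 and Rapgef4 no adjusted p. By edgeR, 1 member, Prkar1a, had an unadjusted p under 0.05. The median log2 fold change of the 8 was 0.13, beside -0.00 over all tested genes.

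**Figure D3:**
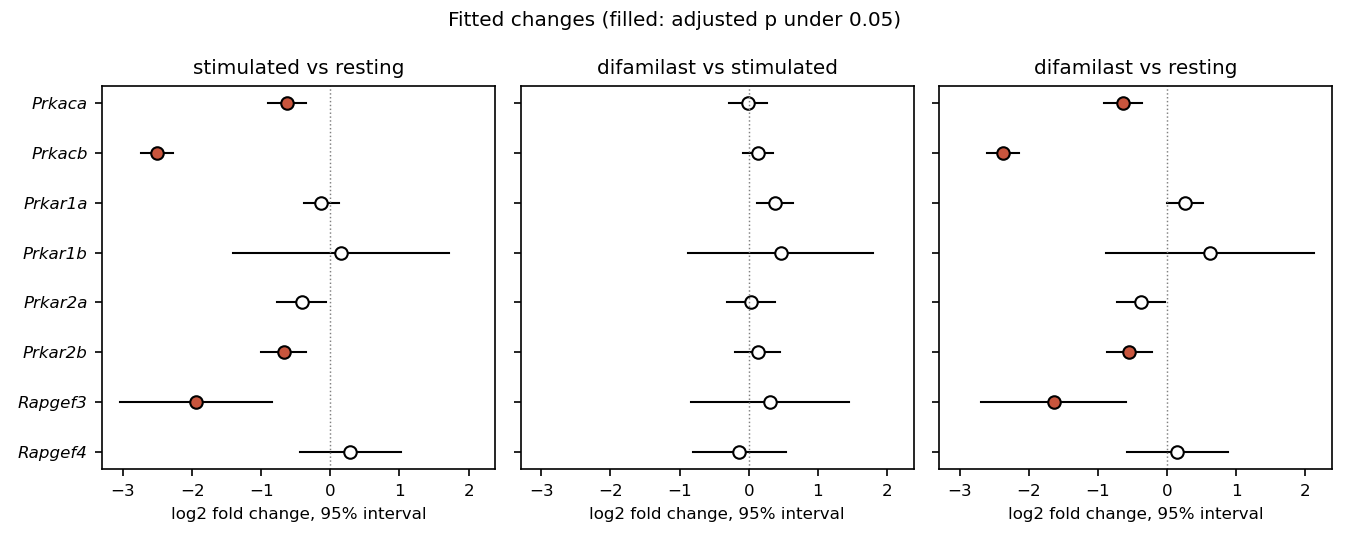
Log2 fold change of each member in the 3 comparisons, with the 95% interval of the edgeR fit; filled points have an adjusted p under 0.05. Prkacb lies at -2.50 and -2.37 in the comparisons with resting libraries, and no point is filled in the comparison of difamilast with stimulated libraries.

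Prkar1a stood at 685, 661 and 549 CPM in difamilast libraries, against 479, 482 and 493 in stimulated ones. Every difamilast library was above every stimulated one, and replicate 3 was the closest to them. The difference was 1.30-fold (95% interval 1.09 to 1.56; unadjusted p = 0.00669 in edgeR's fit across all genes, adjusted p = 0.121). It passed in a fit of these 2 groups alone (adjusted p = 0.0122), without a filter on low counts (0.0213), without difamilast replicate 3 (0.0365) and without resting replicate 1 (0.00479); over its 16 alternatives the adjusted p ran from 0.00479 to 0.438. Resting replicate 1, at 625 CPM, lay inside the range of the difamilast libraries. Resting replicate 1 and difamilast replicate 3 differed most from the other libraries of their groups. The chi-square per degree of freedom of read counts, which also grows with depth, shows this. Resting replicate 1 gave 38.5 and 22.1 against replicates 2 and 3, which gave 5.51 against each other. Difamilast replicate 3 gave 48.7 and 33.3 against replicates 1 and 2, which gave 7.33.

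Prkacb stayed far below its resting level with difamilast. Its difamilast libraries were all above its stimulated ones, by 1.10-fold on average, with a 95% interval of 0.941 to 1.27 (adjusted p = 0.626 by edgeR). Its upper end is well short of the 5.68-fold distance between stimulated and resting libraries. The log2 ratio of Prkacb to Prkaca was 0.57, 0.66 and 0.78 in difamilast libraries, all above the stimulated values. The two-sided exact permutation test gave p = 0.1, the smallest it can give here, so it adds nothing to that separation. For Prkaca the fold was 0.994 (95% interval 0.823 to 1.20), for Prkar2a 1.02 (0.804 to 1.30) and for Prkar2b 1.10 (0.875 to 1.37), and the groups overlapped in each. The Epac genes and Prkar1b allow wider ranges: the 95% interval was 0.559-fold to 2.73-fold for Rapgef3, 0.573-fold to 1.45-fold for Rapgef4 and 0.543-fold to 3.48-fold for Prkar1b.

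The comparison of difamilast with resting libraries shares its resting libraries with the stimulation comparison, so the values are given side by side and not as further evidence. Of the 8 members, 4 were lower and none higher by edgeR, beside 16.4% lower and 16.4% higher over all tested genes. Prkacb was 5.18-fold lower than at rest with difamilast and 5.68-fold lower without it. Prkaca was 1.56-fold and 1.55-fold lower, Prkar2b 1.46-fold and 1.60-fold, and Rapgef3 3.12-fold and 3.85-fold. The Prkar2b call was lost without difamilast replicate 3 (adjusted p = 0.0535). The Rapgef3 call was lost without difamilast replicate 1 (adjusted p = 0.056), difamilast replicate 2 (0.0722) or resting replicate 2 (0.094). For Prkar1a the log2 fold change was 0.25 ± 0.12 (SE) with an adjusted p of 0.126. Leaving out resting replicate 1 (adjusted p = 0.00491) or difamilast replicate 3 (0.0422), or taking out the length trend (0.0228), brought it past the threshold.

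**Figure D4:**
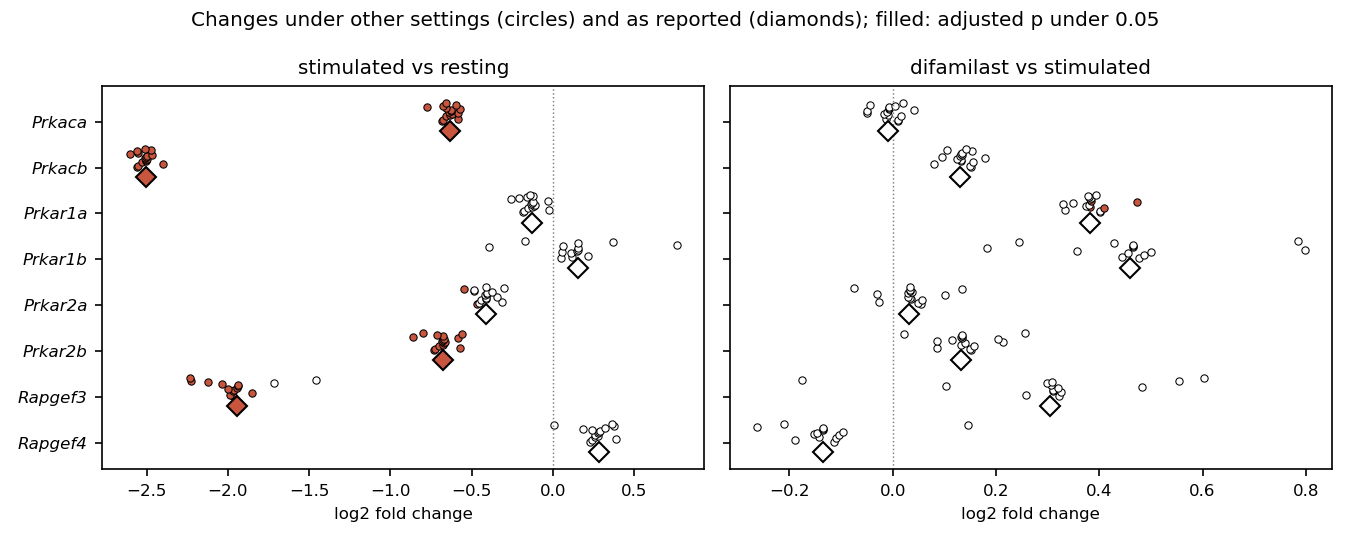
Log2 fold change of each member as reported (diamonds, lower lane) and under up to 16 other settings (circles, upper lane): another scaling, test, filter or set of libraries. Filled symbols have an adjusted p under 0.05. Prkacb stays between -2.60 and -2.40 for stimulation, whereas Prkar1a is filled under 4 settings for difamilast, some of them partly covered by neighbouring circles.

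Among the other genes of the pathway that were tested, the inhibitor gene Pkib had the largest log2 fold change with stimulation. PKI proteins bind free catalytic subunits, block them and carry them out of the nucleus. Pkib stood at 23.8, 25.4 and 30.1 CPM in resting, 182, 181 and 197 in stimulated and 270, 265 and 262 in difamilast libraries, with no overlap between any groups. It was 7.10-fold higher with stimulation (95% interval 6.01 to 8.39; adjusted p = 6.63e-11 by edgeR) and a further 1.42-fold higher with difamilast (95% interval 1.22 to 1.66; adjusted p = 0.00952). The difamilast call was lost without difamilast replicate 2 (adjusted p = 0.0579), stimulated replicate 1 (0.0744) or stimulated replicate 2 (0.0789).

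Set against Prkaca and Prkacb, per length of the longest transcripts, Pkib was 0.051, 0.064 and 0.076 of their summed transcripts in resting libraries. It was 1.42, 1.50 and 1.52 times that sum in stimulated and 2.10, 1.92 and 2.08 times in difamilast libraries. Pkib transcripts were thus a small share of those of Prkaca and Prkacb at rest and exceeded them in all 6 libraries with cytokines. With the median transcript length the ratio was 0.185 at rest, 4.20 after stimulation and 5.79 with difamilast, so its size rests on the length used. The 2 other genes of that list that were tested, Pkig and the related kinase Prkx, did not pass with stimulation (log2 fold change -0.34 and 0.16). Pkia, at 0.11 CPM on average, was not tested. Pkig, Prkx and Pkia are not part of these ratios. Mean levels in resting, stimulated and difamilast libraries were 16.9, 13.4 and 11.4 CPM for Pkig and 72.4, 81.1 and 82.1 CPM for Prkx. Transcript ratios say nothing of protein amounts, which were not measured here.

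Anchoring proteins (AKAPs) tether the regulatory subunits to places in the cell. Of 23 tested genes of that list, 4 rose and 7 fell with stimulation (median log2 fold change -0.21), beside 15.3% higher and 16.4% lower over all tested genes. With difamilast 1 rose and none fell (median 0.02), beside 2.21% and 1.24%. The counts of higher genes are close to the background. The share that fell with stimulation is above it, a difference that was not tested. The difamilast count was 4 without resting replicate 1, 3 with DESeq2 or in the 2-group fit, and 2 without stimulated replicate 2, without a filter or after removal of the length trend. Akap13, an anchor that also activates the GTPase RhoA, stood at 357, 383 and 353 CPM in resting, 837, 842 and 827 in stimulated and 1346, 1342 and 1522 in difamilast libraries, so that the groups did not overlap. It was 2.29-fold higher with stimulation (adjusted p = 1.5e-07 by edgeR) and 1.68-fold higher with difamilast (adjusted p = 2.13e-04). Ezr, the gene of the membrane linker ezrin, rose 2.04-fold with stimulation (adjusted p = 7.72e-07). With difamilast its log2 fold change was -0.29 (adjusted p = 0.129), and it passed as lower after removal of the length trend (0.0444), in the 2-group fit (0.0314) and without resting replicate 1 (0.0213). Cbfa2t3, a transcriptional corepressor that can bind PKA, fell 2.46-fold (adjusted p = 4.38e-05).

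**Figure D5:**
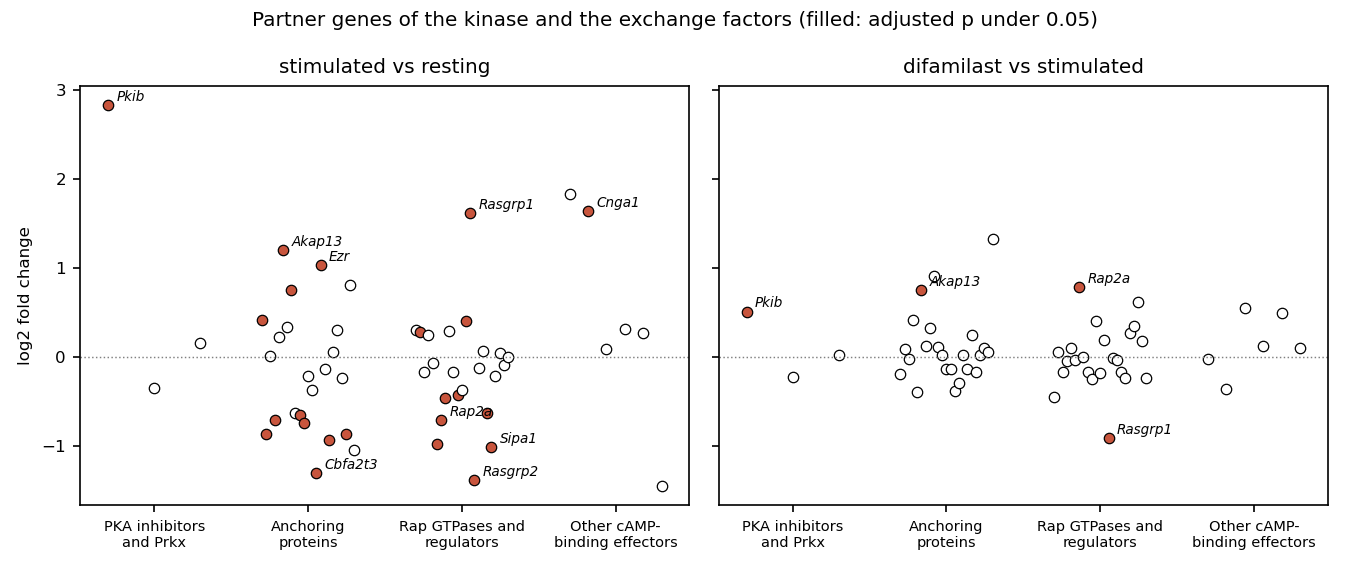
Log2 fold change of each tested partner gene with stimulation and with difamilast, by list: PKA inhibitors and Prkx (3 genes), anchoring proteins (23), Rap GTPases and their regulators (23) and other cAMP-binding effectors (6). Filled points have an adjusted p under 0.05; Pkib lies highest with stimulation, at 2.83.

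Rap GTPases, which Epac activates, and their regulators moved in both directions. Of 23 tested, 3 rose and 7 fell with stimulation (median log2 fold change -0.12), beside 15.3% higher and 16.4% lower over all tested genes. With difamilast 1 rose and 1 fell (median -0.03), beside 2.21% and 1.24%. The total of 2 calls with difamilast was 6 without resting replicate 1, with DESeq2 or in the 2-group fit, 4 without difamilast replicate 3 or without a filter, and 1 without difamilast replicate 1 or 2 or stimulated replicate 1 or 3. Rasgrp2, an exchange factor for Rap1 that responds to calcium, went from 81.9, 60.5 and 67.1 to 28.4, 27.2 and 24.9 CPM with stimulation, 2.61-fold lower (adjusted p = 7.54e-07 by edgeR). Its difamilast libraries, at 26.7, 26.0 and 26.8 CPM, lay inside the stimulated range. Sipa1, which switches Rap off, was 2.02-fold lower with stimulation (adjusted p = 1.43e-04).

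Rap2a and Rasgrp1 moved one way with stimulation and the other with difamilast. Rap2a stood at 55.0, 56.4 and 70.2 CPM in resting, 28.3, 39.2 and 42.9 in stimulated and 66.0, 67.9 and 58.0 in difamilast libraries. It was 1.63-fold lower with stimulation (adjusted p = 0.00223 by edgeR) and 1.73-fold higher with difamilast (adjusted p = 0.00614), and the difamilast libraries lay inside the resting range. Rasgrp1, an exchange factor chiefly for Ras, was 3.06-fold higher with stimulation (adjusted p = 9.31e-05) and 1.88-fold lower with difamilast (adjusted p = 0.026). That last call was lost without difamilast replicate 1 (adjusted p = 0.145) or 2 (0.138), or stimulated replicate 1 (0.146) or 3 (0.128). The comparisons share the stimulated libraries, so an opposite sign in them is not independent evidence.

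The genes most like each called member over the 9 libraries were taken by Pearson's r of log2 CPM from 8075 well-counted genes, leaving out the member itself. For Prkacb these included Heatr5a (r = 0.998) and Rassf2 (r = 0.996). Heatr5a went from 104 ± 9.15 CPM at rest to 33.3 ± 0.473 with stimulation and 33.7 ± 0.554 with difamilast (SD, n = 3), and Rassf2 from 66.3 ± 8.33 to 16.8 ± 1.86 and 18.0 ± 1.32. For Prkaca they were Slc36a4, Tbc1d17 and Sec31a (r = 0.988, 0.987 and 0.986), for Prkar2b Carm1, Rpa1 and Slc25a32 (0.99, 0.968 and 0.968) and for Rapgef3 Haus3, Hcfc1 and Chd6 (0.958, 0.957 and 0.956). Rapgef3 had between 5 and 32 reads in each library, so its matches rest on few counts. The points share libraries and scaling, and no test was made.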

How the data were processed

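The deposited table holds raw read counts per gene symbol. Per the labels' protocols, polyadenylated RNA was amplified over the whole transcriptome before fragmentation; no molecular identifiers are mentioned, so counts may include copies and counting errors are lower limits. Per the submitters' processing notes, cutadapt 4.1, Bowtie2 2.4.5 and GRCm38 were used; for the counting tool, annotation and strand setting, nothing is given in the sources used here.

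Groups came from the sample titles. All 9 libraries were fitted together with edgeR 4.0.16 (R 4.3.3) by the quasi-likelihood test across all genes, with filterByExpr (at least 10 counts, total 15), TMM factors, robust dispersions, no covariate and 6 residual degrees of freedom. Adjusted p-values are Benjamini-Hochberg over 21341 genes, with calls at 0.05; the steps were tested on simulated counts. Positions and transcript lengths are from GENCODE vM21 (GRCm38), promoters from RefSeq (GRCm38.p6); 96.8% of tested genes had a length. Alternatives were RLE scaling, DESeq2 1.42.0, all genes unfiltered, fits of 2 groups, a block for the replicate number, removal of a lowess trend (span 0.3) with transcript length, thinning to the shallowest total, and each library left out. Shares without division by length were added after seeing the data.

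The members, lists and tests were chosen with earlier results of these data known. Named beyond the members are, per list, up to 3 called genes with the smallest p for stimulation and 2 for difamilast, and the 3 genes most like each called member with a mean of at least 10 CPM (prior count 2 on the log scale), without predicted genes; 1 gene that this rule names is not reported here.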

Additional observations from a re-analysis of the deposited data

How the results depend on the processing

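With stimulation, the calls of Prkacb, Prkaca and Prkar2b held in all 16 alternatives, with log2 fold changes of -2.60 to -2.40, -0.77 to -0.57 and -0.86 to -0.56. Between 3 and 5 members were called with stimulation, and between 3 and 5 with difamilast against rest. For difamilast against stimulation, 1 member (Prkar1a) was called in place of 0 when low counts were not filtered and in the fit of these 2 groups alone, and 0 to 1 when a library was left out; over all genes the count went from 735 to 1115 with DESeq2, 1351 without a filter, 1673 in the fit of these 2 groups, and 347 to 1693 when a library was left out (347 without difamilast replicate 2, 1693 without resting replicate 1; the count moved by over 1.5 times without each library except resting replicates 2 and 3). The cause was not tested. With the replicate block, 4, 0 and 4 members were called in the 3 comparisons, as without it, and 700 genes for difamilast. Same-numbered libraries deviated together with a correlation over 0.1 in 2 of 9 pairs (-0.396 to 0.419). Differently numbered libraries spread as widely (-0.527 to 0.592). This check therefore cannot tell whether the numbers pair the libraries.

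Signs turned only for values that passed in no setting. For difamilast against stimulation, these were Prkaca (0.0109 with DESeq2, 0.00938 with RLE scaling, 0.0163 without a filter, -0.0496 to 0.0419 with a library left out), Rasgrp2 (0.00638, 0.00465 and 0.0115 in the same settings, -0.0648 to 0.0305), Prkar2a (-0.0271 after removal of the length trend, -0.0746 to 0.134), Rapgef3 (-0.18 to 0.60) and Rapgef4 (-0.26 to 0.14); for stimulation, Prkar1b (-0.39 to 0.76). Depth limits Prkar1b, Rapgef3 and Rapgef4. After thinning they were not tested, Prkar1b was not tested in the 2-group fits with resting libraries, and DESeq2 gave the 3 no adjusted p for difamilast against stimulation.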

Other observations

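Transcripts of other cAMP-binding proteins had low counts in these libraries. Of 13 genes of the Popeye proteins and the cyclic nucleotide-gated and HCN channels, 10 were in the table and 6 were tested, each averaging under 2 CPM. Cnga1, a subunit of a cyclic nucleotide-gated channel, was the single one called. With stimulation this was 1 of 6, beside 15.3% higher and 16.4% lower over all tested genes. Cnga1 stood at 0.49, 0.66 and 1.14 CPM in resting, 3.23, 2.02 and 1.72 in stimulated and 2.20, 1.43 and 1.56 in difamilast libraries. It was 3.11-fold higher with stimulation (95% interval 1.75 to 5.54; adjusted p = 0.00469 by edgeR), and its adjusted p ran from 5.53e-04 to 0.0259 over 16 alternatives. None of the 6 was called for difamilast against stimulation, beside 2.21% higher and 1.24% lower over all tested genes.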
